A study of Mus musculus with 6 samples.

Results

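Kinesins, dyneins and the proteins that gather at microtubule plus ends were examined in mouse primary hippocampal cells after knockdown of Diras2, a small GTPase of the Ras family found in brain. Genes were chosen by name: numbered kinesin heavy chains (Kif), kinesin light chains (Klc), subunits of cytoplasmic dynein (Dync) and of its activator dynactin (Dctn), and the plus-end proteins Clasp, Clip and Mapre. The rule found 62 genes among the 22180 tested, and Klc2 was not among them, so it was not analysed here. They fall into 15 transport kinesins, 11 mitotic kinesins, 11 other kinesins, 3 light chains, 5 subunits of dynein 1, 2 of dynein 2, 6 of dynactin and 9 plus-end proteins.

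The cells came from hippocampi of embryos at prenatal day 18 and grew as a mixed primary culture. In the knockdown group 3 cultures received AAV1/2 particles with a construct against Diras2, and in the control group 3 received AAV1/2 with a scrambled sequence, so both groups carry virus and an insert. Infection followed 7 days after seeding and RNA was taken after 7 more days. The promoter of the construct, the mouse strain and the age of any animal beyond the embryonic day are not given in the sources used here, and a single knockdown construct was used. The labels speak of biological replicates without naming separate litters, so p-values rest on the spread of these arrays alone, which may be technical in part.

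Kinesins are motors that mostly walk towards the growing plus end of a microtubule, while cytoplasmic dynein walks towards the minus end with the help of dynactin. In neurons these motors carry vesicles, mitochondria and RNA along axons and dendrites. Another set of kinesins builds the spindle and completes cell division, and is normally low in neurons, which no longer divide. Plus-end proteins ride on growing microtubule tips: Mapre proteins, also called EB proteins, bind the tip and recruit others, Clasp proteins rescue and stabilise microtubules, and Clip proteins link tips to dynactin and cargo.

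Diras2 was lower in every knockdown array, at 7.17, 6.23 and 6.08 against 10.17, 10.17 and 9.76 in the controls, a log2 difference of -3.54 (SE 0.27, limma adjusted p 0.000630), with an exact two-sided permutation p of 0.1, which is the minimum for groups of 3. Levels here are log2 RMA values of 1 probe set per gene, and weak signals are drawn towards a floor, which understates folds. Levels of different genes rest on different probes, so a gene's place among all genes is only a rough measure of its signal. All 10 neuron markers, such as Snap25, Syt1 and Tubb3, lay above the median level of all genes, with mean levels from 8.34 to 12.93. Of these 0 rose and 1, Snap25, fell by limma, while 1 was higher and 3 were lower at an unadjusted p under 0.05. With the replicate block 3 fell (Snap25, Syt1 and Nefm). The call of Snap25 (adjusted p 0.0471) was lost without any single array but control replicate 3 (0.0811 to 0.168), and 0 fell with median centring, quantile normalisation or the RNA integrity covariate. The summed linear level of the 10 ran from 17200 to 21600 in the knockdown and 19400 to 26000 in the control. Of 7 inhibitory neuron markers 1, Lhx6, fell, and 4 fell with the replicate block (Lhx6, Sst, Npy and Dlx2), with a median log2 difference of -0.60 and a summed level of 3240 to 6720 against 5110 to 12200, and the part of such cells in the results was not tested. In this bulk RNA, fewer cells of a type and less RNA per cell cannot be told apart.

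The promoters of some mitotic kinesins are shown first, since most hold known cell cycle motifs. In this group 10 of the 11 had a difference above 0, though 1 alone passed the test. A link between the motifs and the differences was not tested. A motif named the cell cycle homology region, with the letters TTTGAA, and the CCAAT box, bound by the factor NF-Y, are typical of genes switched on late in the cell cycle. RefSeq windows (GRCm38.p6) of 250 bases before to 50 after a gene's start were searched on both strands, and capitals mark each match, as TTTGAA or TTCAAA and as CCAAT or ATTGG. Kif11, Kif18b and Kif2c are shown because they passed the test once arrays were paired by replicate number, and Kif18a because it was the 1 mitotic kinesin below 0.
Kif11, chr19:37376132-37376431, plus strand: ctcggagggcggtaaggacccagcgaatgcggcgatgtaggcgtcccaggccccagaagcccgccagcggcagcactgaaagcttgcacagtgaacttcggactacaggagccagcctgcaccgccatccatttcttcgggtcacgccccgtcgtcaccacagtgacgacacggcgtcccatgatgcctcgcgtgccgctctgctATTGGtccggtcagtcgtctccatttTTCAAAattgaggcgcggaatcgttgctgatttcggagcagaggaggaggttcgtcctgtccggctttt
Kif18b, chr11:102925075-102925374, minus strand: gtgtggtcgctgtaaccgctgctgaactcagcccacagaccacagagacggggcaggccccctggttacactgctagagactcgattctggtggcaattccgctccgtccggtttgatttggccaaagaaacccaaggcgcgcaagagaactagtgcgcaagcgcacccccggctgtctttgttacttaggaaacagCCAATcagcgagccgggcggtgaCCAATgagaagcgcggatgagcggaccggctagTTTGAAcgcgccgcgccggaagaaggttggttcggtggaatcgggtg
Kif2c, chr4:117178723-117179022, minus strand: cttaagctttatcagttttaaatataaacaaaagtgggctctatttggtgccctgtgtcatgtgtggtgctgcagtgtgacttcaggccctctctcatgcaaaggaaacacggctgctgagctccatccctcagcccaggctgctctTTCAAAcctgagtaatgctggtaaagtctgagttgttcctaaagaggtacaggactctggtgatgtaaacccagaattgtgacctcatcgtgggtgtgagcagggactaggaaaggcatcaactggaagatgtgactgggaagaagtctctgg
Kif18a, chr2:109280488-109280787, plus strand: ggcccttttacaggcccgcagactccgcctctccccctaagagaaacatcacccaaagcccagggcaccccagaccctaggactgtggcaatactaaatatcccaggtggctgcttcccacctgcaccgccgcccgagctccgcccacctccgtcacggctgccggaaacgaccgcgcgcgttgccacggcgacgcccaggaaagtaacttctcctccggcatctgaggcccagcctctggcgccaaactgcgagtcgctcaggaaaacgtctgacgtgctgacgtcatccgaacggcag

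In Kif11 the CCAAT match begins at position -45 from the start and the TTTGAA match at -19, in Kif18b CCAAT begins at -53 and -30 and TTTGAA at 4, and in Kif2c TTTGAA begins at -103. The matches share no bases with each other. Kif18a holds neither motif in this window. A promoter was found for 10 of the 11 mitotic kinesins, all but Kif20a, the 1 that passed the test, and 9 of those 10 held TTTGAA, against 17.9% of all 32851 promoter windows. For CCAAT the count was 6 of 10 against 37.4%, and the same 6 held both, against 6.95% of all windows. Of 13 windows of 11 transport kinesins, 1 held TTTGAA and 0 held both. Both motifs also stood in the promoters of Kif14 and Kif4, whose differences between the groups were near 0.

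Among the 62 genes, 6 rose and 3 fell by limma at an adjusted p under 0.05, and 53 did not pass. The genes that rose were Clasp2, Clasp1, Kif21b, Kif13a, Kif1b and Kif20a, and those that fell were Mapre1, Kif6 and Kif9. Over all genes tested 4.17% rose and 3.64% fell, and among genes at or above the median level 7.84% and 6.72%. Of the 48 motor and plus-end genes at or above that level, 5 rose (10.4%) and 3 fell (6.25%), shares near those of all genes so bright. The median difference over the 62 was 0.04, against 0.00 over all genes. With the replicate number as a block 10 rose and 4 fell, where 6.05% and 5.64% of all genes did, and 11.1% and 10.1% of those at or above the median level.

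**Figure D1:**
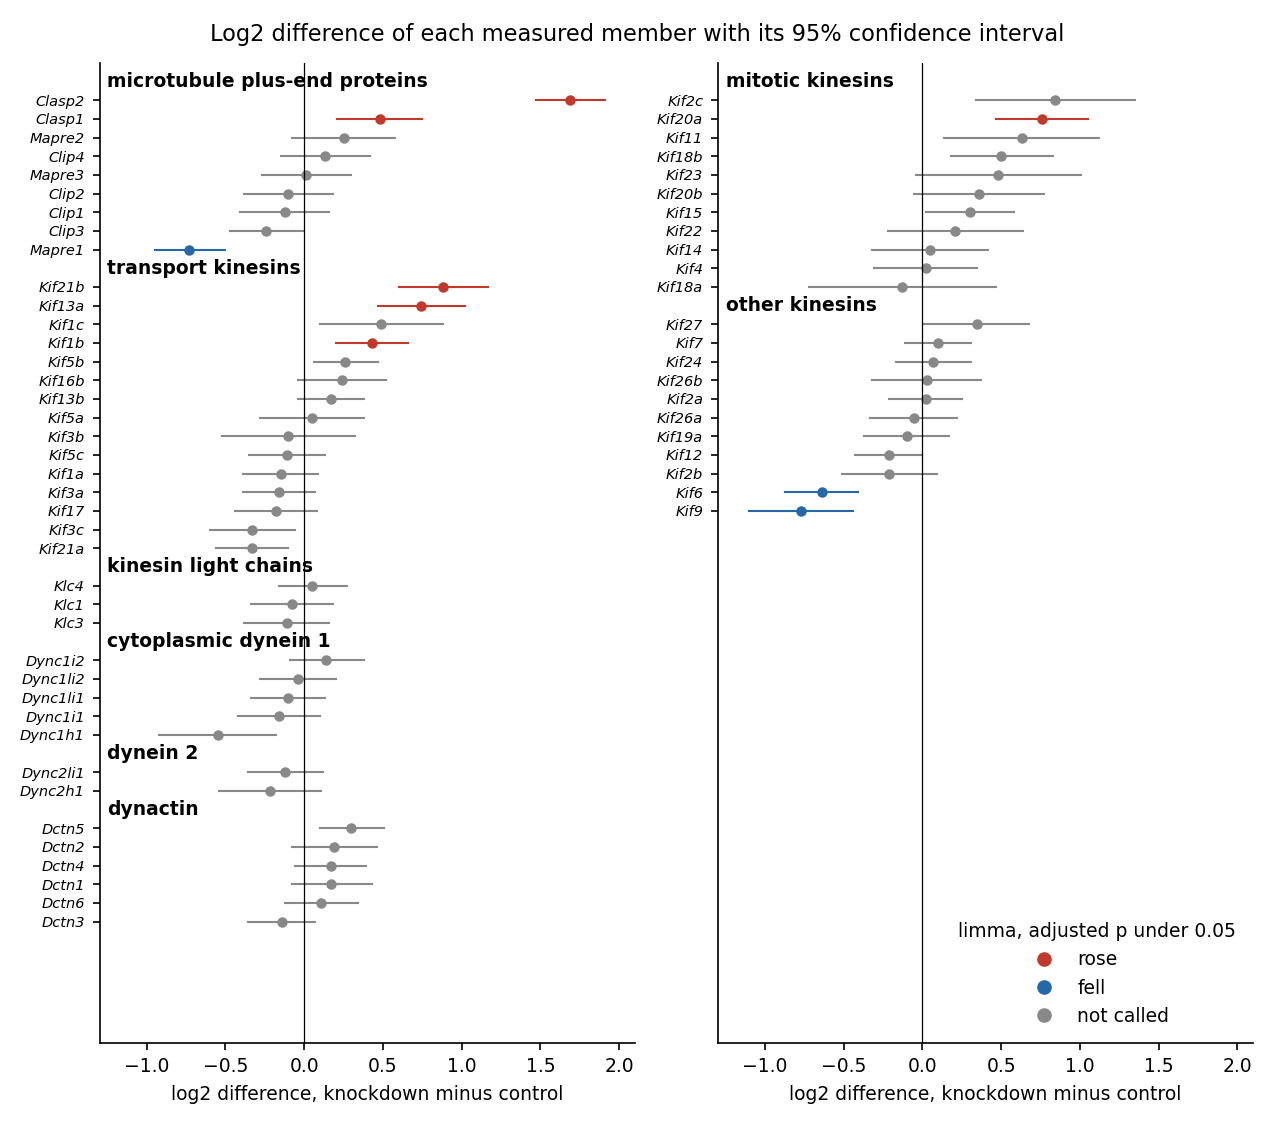
Log2 difference between knockdown and control for each of the 62 genes, grouped by role, with points for the estimate and bars for its 95% confidence interval (limma, 3 arrays per group). Clasp2 lies apart at 1.69, the mitotic kinesins lie mostly to the right of 0, and the light chains, dynein and dynactin subunits are all grey, meaning not called.

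The plus-end proteins held the largest rise of the 62 genes. Clasp2, which anchors microtubules at the cell edge and the Golgi and stabilises them in growth cones, stood at 10.83, 10.73 and 10.83 in the knockdown and at 9.19, 9.05 and 9.07 in the control. The lowest knockdown value lay far above the highest control value, with a gap of 1.54, and replicates of a group spanned 0.10 and 0.14. The rise was 3.23-fold, a log2 difference of 1.69 (SE 0.10, 95% interval 1.47 to 1.91) at an adjusted p of 0.000213 by limma, and it exceeded that of 99.9% of all genes.

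Its paralogue Clasp1, with the same kind of activity, also rose, with a smaller estimate. It was at 9.71, 9.52 and 9.65 in the knockdown and 9.33, 9.11 and 9.00 in the control, groups that did not overlap. The log2 difference was 0.48 (SE 0.12, 95% interval 0.21 to 0.75) with an adjusted p of 0.0463. That call was narrow: it was lost without control replicate 2 (0.161), control replicate 3 (0.116), or any of knockdown replicates 1, 2 and 3 (0.126, 0.0934 and 0.139). It was also lost with median centring (0.0545) and with RNA integrity as a covariate (0.180).

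Mapre1, which encodes EB1, the protein that marks growing tips and recruits most other plus-end proteins, went down. Its knockdown values were 8.78, 8.78 and 8.60 and its control values 9.43, 9.48 and 9.43. The lowest control value exceeded the highest knockdown value by 0.65. The fall was 1.65-fold, a log2 difference of -0.73 (SE 0.10) at an adjusted p of 0.00428, and it held in each of 15 other fits, with the adjusted p between 0.00166 and 0.0293.

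The other EB genes did not pass the test. Mapre3, the EB protein enriched in neurons, had a log2 difference of 0.01 with a 95% interval of -0.27 to 0.30, and Mapre2, which encodes EB2, had 0.25 with an interval of -0.08 to 0.58. Among the Clip genes, Clip3, known from trafficking at the Golgi and endosomes, had knockdown values of 12.07, 11.93 and 11.91 below control values of 12.26, 12.24 and 12.12. Its groups did not overlap, but the log2 difference of -0.24 had an adjusted p of 0.221. Clip1, Clip2 and Clip4 had differences of -0.12, -0.10 and 0.13 and did not pass. In all, 2 of 9 plus-end genes rose (22.2%), 1 fell (11.1%) and the median difference was 0.01. The shares were 4.17% and 3.64% over all genes, and 7.84% and 6.72% over genes at or above the median level.

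**Figure D2:**
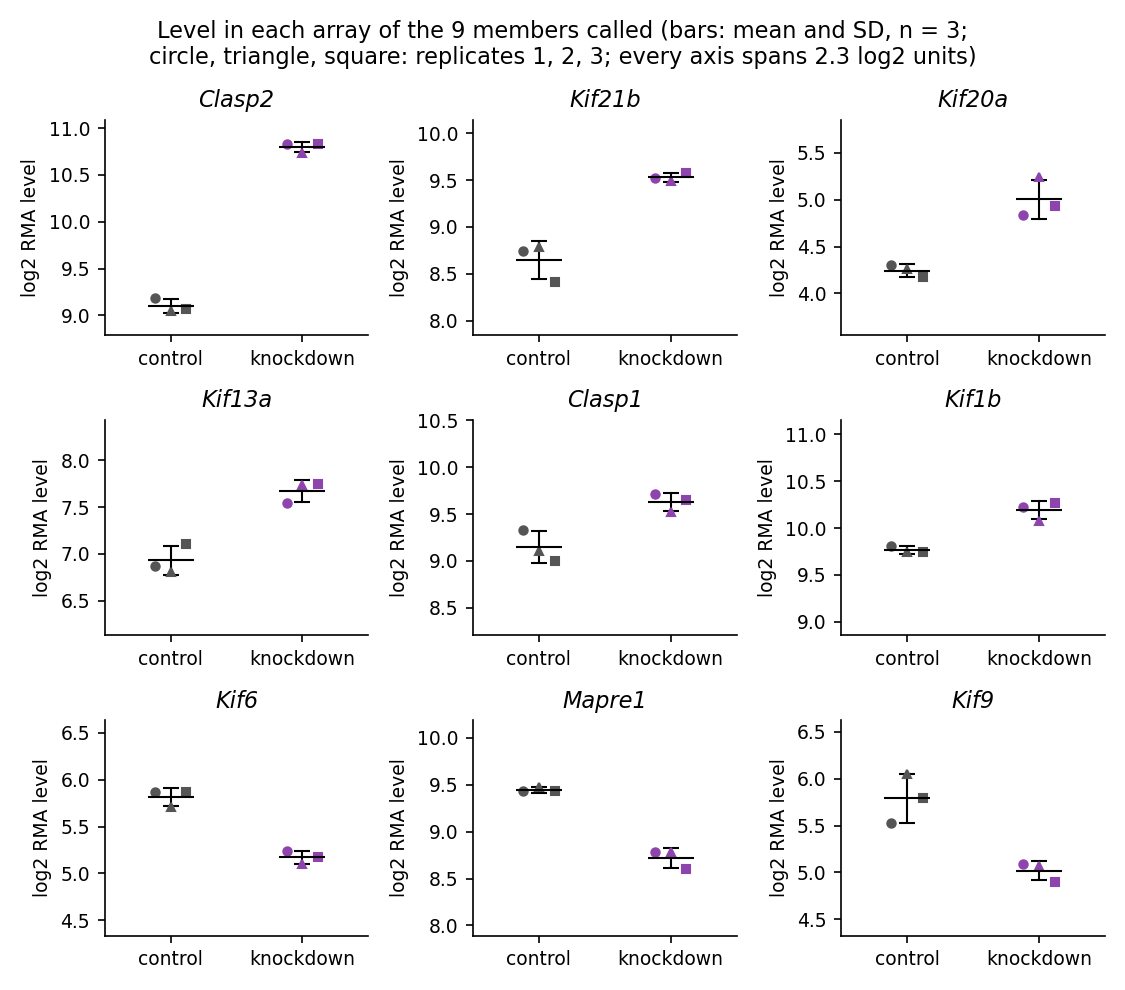
Log2 RMA level in each array of the 9 genes that rose or fell, with the mean and SD of 3 arrays per group as bars and marker shapes for the replicate numbers. In each panel the knockdown and control arrays do not overlap, and Clasp2 shows the widest gap, from 9.10 to 10.80.

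Of 15 transport kinesins 3 rose (20.0%), 0 fell and 12 did not pass. The shares that rose and fell were 4.17% and 3.64% over all genes, and 7.84% and 6.72% over genes at or above the median level. Of the transport kinesins lower by limma, 2, Kif21a and Kif3c, had an unadjusted p under 0.05. The median difference was 0.05, whose sign turned in some alternatives, as the closing section shows. The groups did not overlap for 9 of the 15, of which 5 were higher and 4 lower, against 13.4% higher and 12.1% lower over all genes and 21.3% and 17.5% over genes at or above the median level.

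Kif21b, a kinesin of neuronal dendrites that also restrains microtubule growth, rose most. Its values were 9.52, 9.49 and 9.58 in the knockdown and 8.74, 8.79 and 8.41 in the control, where replicate 3 was lowest. The rise was 1.84-fold, a log2 difference of 0.88 (SE 0.12) at an adjusted p of 0.00474. Its paralogue Kif21a lay on the other side of 0, at 9.50, 9.52 and 9.54 in the knockdown and 9.79, 9.77 and 9.98 in the control. Those groups did not overlap either, and the difference of -0.33 (SE 0.10) had an adjusted p of 0.0969.

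Kif13a, which carries endosomal and Golgi-derived vesicles to the cell periphery, was at 7.54, 7.73 and 7.75 in the knockdown and 6.87, 6.81 and 7.11 in the control. It rose 1.67-fold, by 0.74 (SE 0.12) on the log2 scale, with an adjusted p of 0.00859. Its paralogue Kif13b had a difference of 0.17 (95% interval -0.04 to 0.38) and an adjusted p of 0.362. The calls of Kif21b and Kif13a held in each of 15 other fits, with the highest adjusted p at 0.0292 and 0.0494.

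Kif1b, a carrier of synaptic vesicle precursors and mitochondria, rose by 0.43 (SE 0.10) on the log2 scale, from 9.81, 9.74 and 9.74 to 10.23, 10.08 and 10.27. The groups lay apart, with a gap of 0.27 between the lowest knockdown and highest control value. Its adjusted p was 0.0356, and leaving out any single array lost the call, with adjusted p-values of 0.0962, 0.0652 and 0.125 without knockdown replicates 1, 2 and 3 and 0.0617, 0.132 and 0.0853 without control replicates 1, 2 and 3. RNA integrity as a covariate also lost it (0.122).

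Kif1c, which moves dense core vesicles, was at 7.01, 6.76 and 7.30 in the knockdown and 6.52, 6.31 and 6.78 in the control. The groups overlapped by a little, and each knockdown array lay above the control of the same number. Its difference of 0.49 had an adjusted p of 0.141, against 0.0196 with the replicate block. Kif1a, the main motor for synaptic vesicle precursors, had a difference of -0.15 and an adjusted p of 0.494.

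Of the conventional kinesin heavy chains, Kif5a, Kif5b and Kif5c, none passed the test. Kif5c was at 11.45, 11.29 and 11.22 in the knockdown and 11.52, 11.41 and 11.37 in the control, groups that overlapped. The log2 difference of Kif5c was -0.11 (95% interval -0.35 to 0.13), and that of Kif5a was 0.05 (-0.28 to 0.38). Kif5b, the heavy chain made in most cell types, had a difference of 0.26, with little spread in knockdown values of 10.29, 10.30 and 10.29 and control values of 10.05, 10.01 and 10.03, but its adjusted p was 0.126.

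Of the heterotrimeric kinesin 2 motors, Kif3a and Kif3b had differences of -0.16 and -0.10, and Kif3c, the neuronal partner of Kif3a, had -0.33 with an adjusted p of 0.150. Kif16b, a motor of early endosomes, had 0.24 and Kif17, which carries NMDA receptor vesicles in dendrites, had -0.18. None of these 5 passed the test by limma, and 1, Kif3c, had an unadjusted p under 0.05.

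The light chains, which couple conventional kinesin to cargo, did not pass the test, and 0 had an unadjusted p under 0.05 by limma. Among genes at or above the median level, where all 3 lay, 7.84% rose and 6.72% fell. Klc1, the main neuronal light chain, was at 11.17, 11.22 and 11.01 in the knockdown and 11.34, 11.22 and 11.08 in the control. Klc3 was at 5.35, 5.51 and 5.31 against 5.52, 5.65 and 5.33. In both genes the groups overlapped, and the differences over the 3 light chains ran from -0.11 to 0.05.

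Adaptors and kinesins outside the naming rule included a pair of paralogues with opposite changes. Of 25 measured, 1 rose (4.0%) and 2 fell (8.0%), with a median of 0.00. The shares were 4.17% and 3.64% over all genes, and 7.84% and 6.72% over genes at or above the median level. Trak2, which links kinesin and dynein to mitochondria and works mostly in dendrites, rose 2.27-fold, from 9.05, 8.86 and 8.69 to 9.98, 10.17 and 10.00 (adjusted p 0.00154). Trak1, its counterpart in axons, fell 1.84-fold, from 9.74, 9.66 and 9.83 to 8.90, 8.80 and 8.89 (adjusted p 0.00200). The groups lay apart in both genes, and both calls held in each of 15 other fits, up to 0.0139 for Trak2 and 0.0154 for Trak1. The other that fell was Sybu, syntabulin, which links kinesin 1 to syntaxin vesicles, by 1.64-fold. Its adjusted p of 0.0314 rose to 0.0687 and 0.120 without control replicates 1 and 2, to 0.116 and 0.115 without knockdown replicates 2 and 3, and to 0.0770 in the RNA integrity fit. With the replicate block 5 of this list fell, where 5.64% of all genes did. Among genes at or above the median level, where all but 2 of the 25 lay, 10.1% fell with the block. The count of this list that fell was 1 when control replicate 1 or 2, or knockdown replicate 2 or 3, was left out. In those fits 306 to 687 of all genes fell, against 807 in the main fit.

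Mitotic kinesins lay mostly higher in the knockdown, and 1 of the 11 passed the test (9.09%, where 4.17% of all genes rose). Their median difference was 0.36 and 10 of 11 were above 0, beside a median of 0.05 and 8 of 15 for the transport kinesins. With the replicate block 4 mitotic and 4 transport kinesins rose, where 6.05% of all genes did. Among genes at or above the median level, where all 15 transport kinesins lay, 11.1% rose with the block. Without knockdown replicate 1, the lowest knockdown array for 10 of the 11, 4 mitotic kinesins rose, with Kif23 in place of Kif11. In that fit 632 of all 22180 genes rose. The mitotic median was 0.55 without knockdown replicate 1 and 0.22 without knockdown replicate 2. Most of these probe sets were dim: 8 of 11 had a mean level below the median gene, and the mean levels ran from 3.17 to 5.68.

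Kif20a, which moves regulators to the central spindle at the end of mitosis, was the gene that passed. It was at 4.84, 5.24 and 4.93 in the knockdown and 4.30, 4.26 and 4.17 in the control. The groups did not overlap, and knockdown replicate 2 was highest. It rose 1.69-fold, by 0.76 (SE 0.13) on the log2 scale, with an adjusted p of 0.00981 and a highest adjusted p of 0.0496 over 14 other fits.

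Kif2c, a depolymerase that corrects attachments at centromeres, had the largest estimate of the group. Its values were 3.68, 4.64 and 4.39 in the knockdown and 3.43, 3.34 and 3.41 in the control, so knockdown replicate 1 lay much nearer the controls than the others. The difference of 0.84 (SE 0.22) had an adjusted p of 0.0585, against 0.0391 with the replicate block. It was also called with array weights (0.0169), quantile normalisation (0.0477) and median centring (0.0469), and without knockdown replicate 1 (0.00456).

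Kif18b, which shortens astral microtubules, was at 5.42, 5.86 and 5.72 in the knockdown and 5.17, 5.31 and 5.01 in the control. Its difference was 0.50 (SE 0.14), with an adjusted p of 0.0721, against 0.0405 with the replicate block. Kif11, the motor that pushes spindle poles apart, was at 5.13, 5.96 and 5.48 against 4.62, 4.97 and 5.08. Its difference was 0.63 (SE 0.21), with an adjusted p of 0.129, against 0.0304 with the replicate block. In both genes the knockdown arrays all lay above the controls.

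Kif15, a helper of Kif11, had a difference of 0.30, Kif23, of the central spindle, 0.48, Kif20b, of cell abscission, 0.36, and Kif22, which pushes chromosome arms outward, 0.21. Kif14 of the midbody and the chromosome-bound Kif4 had 0.05 and 0.02. Kif18a, which aligns chromosomes, was at 5.32, 5.70 and 5.83 in the knockdown and 5.16, 5.85 and 6.22 in the control, fully overlapping, with a difference of -0.13. None of these 7 passed the test, and the signs of Kif22, Kif14, Kif4 and Kif18a turned in some alternatives.

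**Figure D3:**
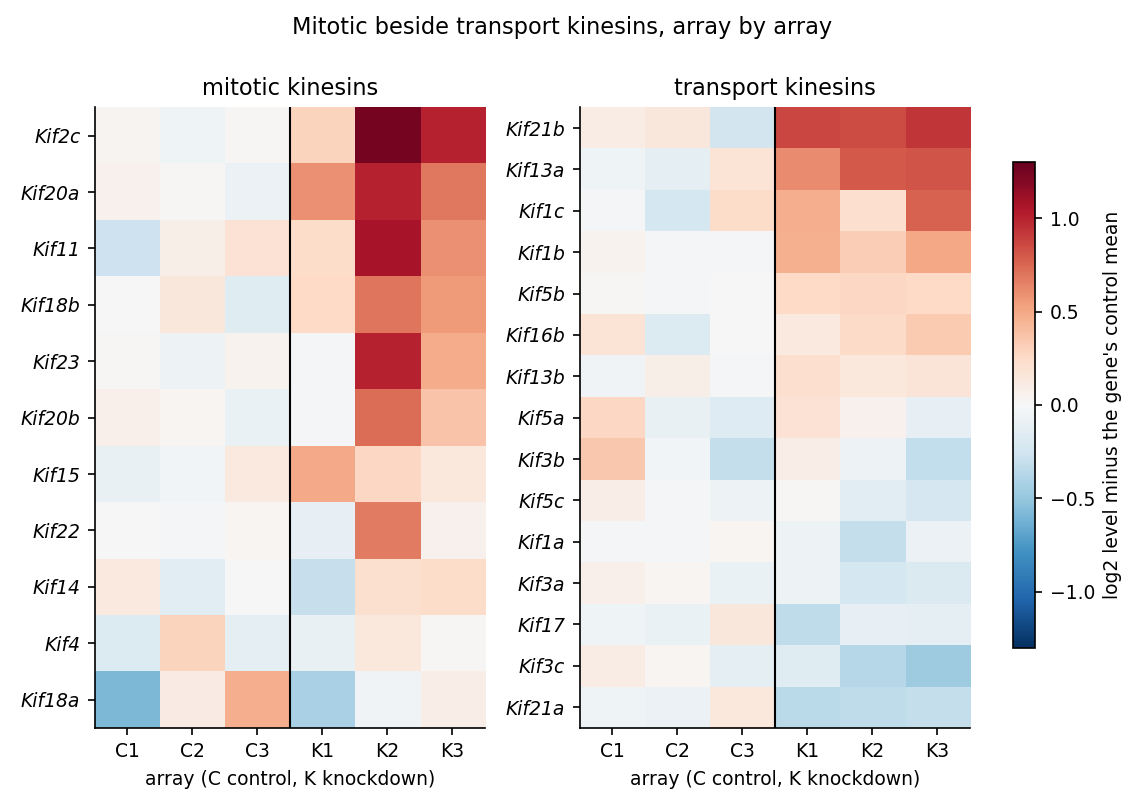
Level of each mitotic kinesin (left) and transport kinesin (right) in each array, as the log2 level minus the control mean of that gene (red above, blue below). The red of the mitotic kinesins is strongest in knockdown array 2 and weakest in knockdown array 1, while among transport kinesins the topmost genes are red in all 3 knockdown arrays.

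The mitotic kinesins differed between the knockdown arrays. Knockdown replicate 2 held the highest knockdown value for 8 of the 11 genes, and knockdown replicate 1 the lowest for 10. The median over the 11 of the level minus the control mean was -0.02, 0.70 and 0.37 in knockdown replicates 1, 2 and 3. In the controls it was 0.01, 0.02 and 0.02. Among transport kinesins the same medians were 0.12, 0.06 and -0.07. RNA integrity numbers had the same order over the knockdown arrays as the mitotic kinesins, at 9.0, 9.3 and 9.2 in replicates 1, 2 and 3. In controls 1, 2 and 3 they were 9.2, 9.0 and 8.8. The part of RNA integrity in this order was not tested.

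Other mitosis genes had a like order over the arrays. Of 28 measured mitosis partners, which include cyclins, mitotic kinases and kinetochore proteins, 9 rose (32.1%) and 0 fell by limma, with a median of 0.47. Over all genes 4.17% rose and 3.64% fell. Of the partners 0 had an unadjusted p under 0.05 in the lower direction. The number of partners that rose was 12 with the replicate block, where 6.05% of all genes rose. It was 3 with RNA integrity as a covariate, and 3 of those at or above the median level when dim genes were left out. It was 4, 1 and 2 without control replicates 1, 2 and 3, and 10, 2 and 3 without knockdown replicates 1, 2 and 3. Without control replicate 3, 1 partner fell, where 653 of all genes did. Of all 22180 genes 800, 383 and 679 rose without those controls and 632, 418 and 492 without those knockdown arrays. With RNA integrity as a covariate 402 rose, against 924 in the main fit. The array medians of the partners were 0.22, 0.62 and 0.46 in the knockdown and 0.02, 0.02 and -0.05 in the control. Mad2l1, of the spindle checkpoint, rose 2.05-fold with an adjusted p of 0.00128, a call that held in each of 15 other fits. Mki67, the proliferation antigen, was at 5.62, 6.81 and 6.45 in the knockdown and at 4.81 ± 0.22 (SD, n = 3) in the control, with a gap of 0.62 between the groups and replicate 1 again lowest of the knockdown arrays. Its call was lost without control replicate 2 (0.0689), knockdown replicate 2 (0.0550) or knockdown replicate 3 (0.0713). Kinesin genes of mitosis outside the naming rule, Cenpe and Kifc1, had differences of 0.36 and -0.06 and did not pass.

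Markers of oligodendrocyte precursors, cells that divide in such cultures, are given beside this. Of 7 measured, 1 rose and 0 fell by limma, and 4 lay above 0 and 3 below. Their array medians were -0.36, 0.55 and 0.15 in the knockdown and -0.07, -0.03 and 0.15 in the control. Their summed linear level ran from 1050 to 2000 in the knockdown and from 1260 to 1590 in the control. The gene that rose was Pdgfra, at 5.94, 8.08 and 7.22 against 4.33, 3.91 and 4.60, with the same order of knockdown arrays as Kif2c. Its adjusted p was 0.0104, 0.0575 without control replicate 2 and 0.0514 in the RNA integrity fit. Ptprz1, also a marker of radial glia, went the other way, with a difference of -0.56 and an adjusted p of 0.0519, against 0.0137 with the replicate block. It was the 1 marker of this list lower at an unadjusted p under 0.05. Progenitor and radial glia markers had a median of -0.09 with 0 of 7 called and 0 at an unadjusted p under 0.05 by limma, and a summed linear level of 4320 to 5870 against 5130 to 7370. The part of these cell types in the result was not tested, nor was that of dividing cells as a whole.

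**Figure D4:**
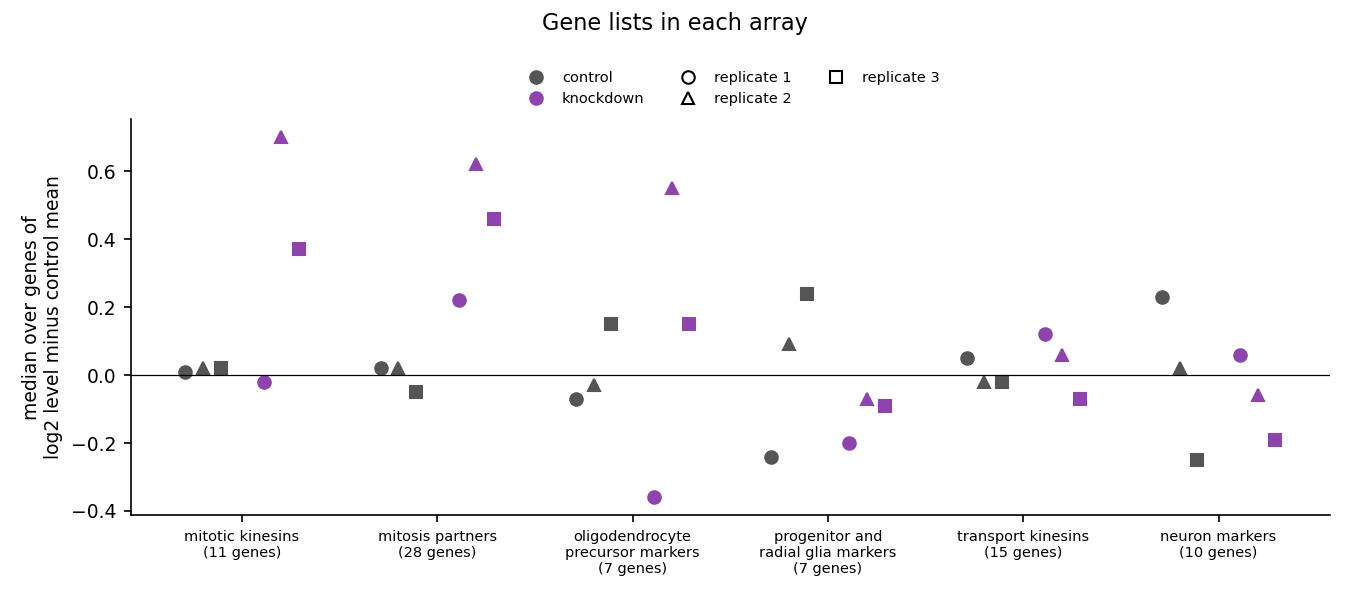
Median over the genes of a list of the log2 level minus the control mean of each gene, for each array, with control in grey and knockdown in purple and marker shapes for the replicate numbers. The mitotic kinesins reach 0.70 in knockdown replicate 2 and -0.02 in knockdown replicate 1, and mitosis partners and oligodendrocyte precursor markers are also highest in knockdown replicate 2.

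Of 11 other kinesins 2 fell (18.2%), 0 rose and 9 did not pass by limma, with a median of -0.05. Over all genes 3.64% fell and 4.17% rose. Of the kinesins in this group that lay higher, 1, Kif27, had an unadjusted p under 0.05. Kif9, a kinesin of motile cilia and sperm tails, was at 5.09, 5.07 and 4.90 in the knockdown and 5.53, 6.05 and 5.79 in the control. The groups did not overlap, and the controls were the more spread. It fell 1.71-fold, a log2 difference of -0.77 (SE 0.14) at an adjusted p of 0.0163. The call was lost without control replicate 2 (0.0595), knockdown replicate 2 (0.0625) or knockdown replicate 3 (0.0707), and also in the RNA integrity fit (0.0832).

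Kif6, its relative in the same branch of the kinesin family, fell 1.56-fold. It was at 5.24, 5.10 and 5.18 in the knockdown and 5.87, 5.71 and 5.87 in the control, both groups tight and apart. The log2 difference was -0.64 (SE 0.10) with an adjusted p of 0.00759, and the call held in each of 15 other fits. Both genes lay just above the median level of all genes. Markers of ependymal and multiciliated cells, which carry motile cilia, had 0 of 5 called and 1 at an unadjusted p under 0.05 by limma, a median of -0.13 and a summed linear level of 128 to 134 in the knockdown and 131 to 157 in the control. The part of such cells in the result was not tested.

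The remaining kinesins did not pass. Kif2a, the depolymerase that prunes axon branches, was at 9.58, 9.53 and 9.46 in the knockdown and 9.61, 9.50 and 9.40 in the control, a difference of 0.02 (95% interval -0.21 to 0.25). Kif27, of the cilium, had 0.35 with an adjusted p of 0.220, and Kif7, a regulator of hedgehog signalling at the cilium tip, had 0.10. Kif26a and Kif26b, which lack motor activity, had -0.05 and 0.03. Kif24, which removes microtubule ends at the mother centriole, had 0.07, and Kif12, Kif19a and Kif2b had -0.21, -0.10 and -0.21.

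No subunit of dynein or dynactin passed the test. Of the 13, 0 rose and 0 fell by limma, while Dync1h1 and Dctn5 had an unadjusted p under 0.05. Over all genes 4.17% rose and 3.64% fell. Among genes at or above the median level, where all 13 lay, 7.84% rose and 6.72% fell. With the replicate block 0 of the 13 rose and 1 fell, where 6.05% and 5.64% of all genes did. The gene that fell there was Dync1h1, the motor subunit of cytoplasmic dynein 1. It was at 9.27, 8.69 and 9.22 in the knockdown and 9.60, 9.54 and 9.69 in the control. The groups did not overlap, and knockdown replicate 2 was far below the other arrays. The difference of -0.55 (SE 0.16) had an adjusted p of 0.0831, of 0.0372 with the replicate block and of 0.0488 with array weights, and without knockdown replicate 2 it was -0.36 with an adjusted p of 0.152.

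The other dynein 1 subunits had differences between -0.16 and 0.14. Dync1li1, a light intermediate chain that binds cargo adaptors, was at 10.41, 10.41 and 10.25 in the knockdown and 10.56, 10.45 and 10.37 in the control, which overlapped. Dynein 2 returns cargo from the tip of the cilium. Its motor Dync2h1 was at 5.96, 5.60 and 6.10 against 6.21, 6.08 and 6.02. Its light intermediate chain Dync2li1 was at 7.44, 7.59 and 7.56 against 7.79, 7.56 and 7.60. Both overlapped between groups, with differences of -0.22 and -0.12.

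Of the 6 dynactin subunits 5 lay above 0, and the median was 0.17. Dctn5, of the pointed end of the dynactin filament, was at 10.50, 10.43 and 10.46 in the knockdown and 10.17, 10.19 and 10.12 in the control. Its groups lay apart with small spread, and its difference of 0.30 (SE 0.09) had an adjusted p of 0.0878. With an intensity trend in the variance it was 0.0338. Dctn4, also of the pointed end, was at 11.18, 11.12 and 11.09 against 11.00, 11.04 and 10.85, with a difference of 0.17 and an adjusted p of 0.402. Dctn1, the p150Glued subunit that holds dynein and the microtubule, had a difference of 0.17 and an adjusted p of 0.446. Dctn2, Dctn6 and Dctn3 had 0.19, 0.11 and -0.14.

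Dynein light chains, regulators and adaptors were measured for 18 genes, of which 3 rose (16.7%) and 0 fell by limma. The shares were 4.17% and 3.64% over all genes, and 7.84% and 6.72% over genes at or above the median level. In this list 2 had an unadjusted p under 0.05 in the lower direction, and the median was 0.09. The count that rose was 1 when a single array other than knockdown replicate 1 was left out, with the RNA integrity covariate, and with an intensity trend. Of all 22180 genes 383 to 800 rose without such an array, 402 with that covariate and 1011 with the trend, against 924 in the main fit. Dynlt3, a light chain shared by dynein and other complexes, rose 1.95-fold, from 7.90 ± 0.09 (SD, n = 3) to 8.70, 8.84 and 9.05 (limma adjusted p 0.00312). Nde1, which with its relative Ndel1 helps dynein bear load and acts in dividing progenitors, rose 1.37-fold with an adjusted p of 0.0464, and of 0.0804 to 0.152 without any array but knockdown replicate 1. The last was Hook1, an adaptor that activates dynein, at 1.36-fold, with an adjusted p of 0.0468 and of 0.0773 to 0.159 without each array in turn. The call of Dynlt3 held in each of 15 other fits. Pafah1b1, which encodes Lis1, had a difference of 0.25 and an adjusted p of 0.242.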

How the data were processed

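Total RNA of 6 samples was read on Affymetrix arrays, 3 per group. The deposited values are log2 RMA levels of probe sets. The submitters' processing notes name Affymetrix Expression Console, version 1.2.1.20. RMA brings the arrays to nearly the same distribution (array medians here from 4.03 to 4.11), which can hide a shift common to most genes. Of 41345 probe sets a platform annotation gives 23521 exactly 1 gene symbol, and the brightest per gene was used. Knockdown minus control was fitted with limma 3.58.1 (R 4.3.3; lmFit, eBayes), with Benjamini-Hochberg adjustment over all 22180 genes and a call at an adjusted p under 0.05. Genes were named by rule: each called gene, the brightest and lowest-p gene of each role, and the 2 called genes of lowest p in other lists; others were named after their values were seen. Members and lists were chosen with earlier results of these data known. Same-numbered samples deviated together, with correlations of 0.427, 0.121 and 0.374 across genes, all above 0.1. Other pairs had -0.378 to 0.0568. Replicate numbers were therefore taken to pair the samples in an alternative fit, the replicate block. Calls and p-values given without a named setting come from the main fit, which left this pairing out. The alternatives were that block, leaving out each array, other scaling, a filter on dim genes, other variance models, RNA integrity as a covariate, averaged probe sets and other thresholds. Promoter windows are from RefSeq, GRCm38.p6. Figures were drawn with matplotlib 3.10.9. The number of arrays limits the precision.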

Additional observations from a re-analysis of the deposited data

How the results depend on the processing

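Of the 9 motor and plus-end genes called, 6 (Clasp2, Mapre1, Kif21b, Kif13a, Kif20a and Kif6) kept direction and call in every fit tried that held them (Kif20a was too dim for the filter on dim genes), and Clasp1, Kif1b and Kif9 did not. Of the 53 not called, 8 passed in at least 1 alternative. With the replicate block 10 genes rose and 4 mitotic kinesins did, against 6 and 1. Over all genes 1341 rose and 1252 fell with the block, against 924 and 807, while 402 and 356 did in the RNA integrity fit, 1401 and 1302 under array weights and 383 and 306 without control replicate 2. Among microtubule-associated genes 7 fell with the block, against 4. Mitotic kinesins that rose numbered 3 with array weights, 2 with quantile normalisation, 2 with median centring, 3 at an adjusted p under 0.10 and 1 to 4 when each array was left out. Over all genes 899 rose with quantile normalisation, 945 with median centring and 383 to 800 when each array was left out. Transport kinesins that fell numbered 1 among brighter genes and 1 at an adjusted p under 0.10, where 5 genes fell in all. The transport median was -0.03 in the RNA integrity fit and -0.04 to 0.15 without each array in turn. Signs turned for genes near 0. With RNA integrity as a covariate the differences were -0.11 for Mapre3, 0.06 for Kif18a, -0.09 for Kif14, -0.01 for Kif4, -0.02 for Kif2a, -0.04 for Kif26b and -0.03 for Kif5a. With array weights they were -0.10 for Kif4 and -0.06 for Kif26b, and with quantile normalisation -0.00 for Mapre3. Leaving out each array gave -0.08 to 0.02 for Dync1li2, -0.04 to 0.23 for Kif14, -0.42 to 0.11 for Kif18a, -0.02 to 0.37 for Kif22, -0.15 to 0.01 for Kif26a and -0.11 to 0.11 for Kif26b. It gave -0.03 to 0.07 for Kif2a, -0.26 to 0.08 for Kif3b, -0.07 to 0.16 for Kif4, -0.04 to 0.18 for Kif5a and -0.08 to 0.08 for Mapre3. The causes were not tested. Levels below the median gene may sit near the RMA floor, so small differences of the mitotic kinesins are the least certain.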

Other observations

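The tracks that these motors run on were measured as well. Of 48 tubulins, stathmins and microtubule-associated proteins, 4 rose (8.33%) and 4 fell (8.33%) by limma. The other 40 were not called, and the median log2 difference was -0.02. These shares were near the 7.84% and 6.72% of all genes at or above the median level, where all but 2 of the 48 lay. Over all genes tested 4.17% rose and 3.64% fell. Dcx, doublecortin of young migrating neurons, rose 1.69-fold, from 9.40, 9.25 and 8.86 to 10.10, 9.83 and 9.86, groups that did not overlap. Gas2l1, which links actin to microtubules, rose 1.60-fold, and Tpx2, a spindle assembly factor, 1.61-fold. The other that rose was Tubb4b, a beta tubulin with a dim probe set, at 1.40-fold. Those that fell were Nav1 and Nav3, neuron navigators found at microtubule plus ends, by 1.82-fold and 1.52-fold, Tacc2, by 1.42-fold, and Ckap5, the polymerase at growing plus ends and a partner of Clasp and EB proteins there, by 1.33-fold. Ckap5 was at 9.23, 9.00 and 9.15 in the knockdown and 9.54, 9.52 and 9.57 in the control. Nav1 has a second probe set, and with both averaged its difference of -0.87 became -0.48 and the call was lost (adjusted p 0.0889). These calls were narrow: 0 rose and 0 fell with RNA integrity as a covariate and also without knockdown replicate 3, while 1 rose and 0 fell when either control or knockdown replicate 2 was left out. Of all genes 402 rose and 356 fell with that covariate, and 492 and 368 without knockdown replicate 3. Without control replicate 2 they numbered 383 and 306, and without knockdown replicate 2, 418 and 330. Median centring left 4 of the 48 that rose and 2 that fell. Map2, Mapt and Map1b, of dendrites and axons, had differences of -0.10, -0.16 and -0.24 and did not pass, and Tubb3 had 0.39 with an adjusted p of 0.106.

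A second, dimmer probe set was present for 3 of the kinesins. That of Kif5b had a log2 difference of 0.07, that of Kif27 0.03 and that of Kif7 0.11, against 0.26, 0.35 and 0.10 for the probe sets used, and none of these passed the test.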
